A study of Homo sapiens with 4 samples.

Results

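Integrins are the receptors that hold a cell to its extracellular matrix, and the 10 genes described here encode some of the α and β subunits of matrix-binding receptors. They were ITGA2, ITGA3, ITGA5, ITGA10 and ITGAV for the α chains and ITGB1, ITGB3, ITGB5, ITGB6 and ITGB8 for the β chains, out of 26 integrin subunit genes and 20501 genes that could be named on the arrays. The members were taken by name, and every array probe designed on a RefSeq transcript of a member was used, which gave 10 probes, 1 for each gene. MCF-10A cells, an established non-tumorigenic human mammary epithelial line that grows attached to the dish, were exposed to 10 µM of a stapled peptide, a short helix held in shape by a chemical bridge. The groups were MCF-10A exposed to stapled-peptide or to non-specific stapled-peptide, each for 24 h or for 48 h. Total RNA of each group was hybridized to 1 single-colour Agilent array, so that 4 arrays on 1 slide make up the data and no group has a replicate. No test was therefore possible, and every difference is one between 2 arrays. The labels give the same cell line and medium for all groups, and no untreated cells were among them. Basal mammary marker genes, given below, were bright on 3 of the 4 arrays and far lower on the fourth, whose sample is in doubt. The labels also call the treatment of the non-specific group control, and they do not tie either peptide to a named analog, so values go by the label alone.

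An integrin is a dimer of an α chain and a β chain, each of which spans the membrane, and a chain that lacks its partner is kept inside the cell. The β1 chain joins many α chains, whereas αV is the α chain that joins many β chains. α2β1 and α10β1 bind collagen, α3β1 binds laminin, α5β1 binds fibronectin, and the αV receptors bind fibronectin, vitronectin or the latent form of TGF-β. In mammary epithelium these receptors anchor the basal cells to the basement membrane and carry signals to the cytoskeleton through talin and kindlin. RNA levels say which subunits a cell could make, and they measure neither protein nor pairing.

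The bases just upstream of the start site are shown for 3 members, ITGA10 because its signal differed most between the arrays, ITGA5 because it pairs with ITGB1 in the fibronectin receptor, and ITGB6 because it had the lowest GC content among the members. They were read from RefSeq on GRCh38.p14, 5′ to 3′ on the strand of the gene, and each run ends at the base before the annotated start. Capitals mark the letters of the motifs that were searched. The ITGA10 run lies at chr1:145910051-145910300, the ITGA5 run at chr12:54419267-54419516 and the ITGB6 run at chr2:160200273-160200522, all on the minus strand.
ITGA10: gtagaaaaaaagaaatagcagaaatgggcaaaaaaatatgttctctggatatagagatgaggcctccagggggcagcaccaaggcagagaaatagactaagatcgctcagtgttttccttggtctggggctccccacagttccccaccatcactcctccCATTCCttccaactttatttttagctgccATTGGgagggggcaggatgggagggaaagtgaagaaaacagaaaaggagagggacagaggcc
ITGA5: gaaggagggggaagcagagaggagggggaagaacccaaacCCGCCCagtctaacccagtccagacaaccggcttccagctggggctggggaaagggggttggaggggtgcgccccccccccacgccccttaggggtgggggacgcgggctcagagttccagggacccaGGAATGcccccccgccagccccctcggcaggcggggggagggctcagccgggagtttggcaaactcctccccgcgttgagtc
ITGB6: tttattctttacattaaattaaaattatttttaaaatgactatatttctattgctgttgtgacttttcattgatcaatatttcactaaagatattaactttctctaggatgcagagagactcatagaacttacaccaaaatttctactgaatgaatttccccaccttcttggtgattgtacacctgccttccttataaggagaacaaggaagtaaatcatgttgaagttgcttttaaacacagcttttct

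The upstream sequences of the members had no common make-up. Start sites were listed for 8 of the 10 members, 12 in all, and the 250 bases before each were searched on both strands. The ITGB6 run was 30.0% G and C, lower than nearly all of the 35116 start sites in the table, where the median was 58.0%. ITGA10 had 48.4%, ITGA5 70.0%, ITGB8 71.2% and ITGA2 76.4%, and the other members listed had several starts. The GC box GGGCGG stood upstream of 6 of the 12 member starts, and it was present at 42.6% of all start sites. The TEAD motif GGAATG stood upstream of 3 of the 12, those of ITGA10, ITGA5 and 1 start of ITGB1, against 11.9% of all start sites. The CCAAT box CCAAT was found at 2 of the 12, ITGA10 and ITGB8, and at 32.0% of all start sites. TATAAA was found at 1 of the 12, a start of ITGB1, and at 10.7% of all start sites. The AP-1 motif TGANTCA was found at no member start and at 6.57% of all start sites. No match overlapped another in the 3 runs shown, and a match describes letters only.

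Before the results, 1 array has to be set apart. After quantile normalization, which gives every array the same distribution of signals, both arrays at 24 h and the stapled-peptide array at 48 h correlated with each other at Pearson's r of 0.976 to 0.978 across probes. The remaining array, called the last array here, is the one labelled as the non-specific group at 48 h and correlated with them at 0.799 to 0.807. Probes are not independent replicates, and these values describe the arrays. The 5 basal mammary epithelial markers KRT5, KRT14, KRT17, TP63 and CDH3, taken as markers of the labelled cell type, had a summed signal of 31463 to 35060 on the 3 like arrays. On the last the sum was 143, although all 5 stayed well above background there. A list of 5 fibroblast markers was about as bright on the like arrays, at 29536 to 32014, and summed to 181 on the last. A bright list alone thus does not name a cell type. A list of 5 genes of an embryonic kidney line, LIN28B, PAX2, HOXA9, CKB and L1CAM, had a summed signal of 766 to 814 on the 3 like arrays and of 21810 on the last. LIN28B was not well above background on the 3 like arrays and was well above it on the last. L1CAM was well above it on the 3 like arrays and PAX2 on the stapled-peptide array at 48 h, and neither was on the last. Between the peptides at 48 h, 3 of the 5 were higher by 4-fold and 2 were lower by less than that. Over all genes 8.1% were higher by 4-fold. The marker values go against the MCF-10A label of the last array, so the identity of its sample is in doubt. Every value given below for the non-specific group at 48 h is that of an array so labelled. The part of these markers in the results below was not tested. Each result that uses the last array is therefore followed by the comparisons that do without it, which are those between the peptides at 24 h and between the times with stapled-peptide. With 1 array at that point, an effect of the peptide and a property of that culture or array cannot be told apart, nor can fewer cells of a type and less RNA per cell.

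On the 3 arrays that were alike, 9 of the 10 subunits were well above background, the software's mark for a spot clearly brighter than its surroundings. ITGB3, the β chain of the vitronectin receptor of platelets and osteoclasts, was the exception. On the last array, 6 of 10 were well above background, as ITGA2, ITGB6 and ITGB8 had joined ITGB3 below it. Over all genes the share well above background was 75.8% to 77.5% on the 3 like arrays and 78.1% on the last. Of 14842 genes that were well above background on the 3 like arrays, 5.39% were not on the last, and among the members this was 3 of 9. Of 3934 genes that were on none of the 3, 28.2% were on the last, and ITGB3 was not among them. The summed signal of the 10 members was 27635 to 29065 on the 3 like arrays and 1157 on the last.

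**Figure D1:**
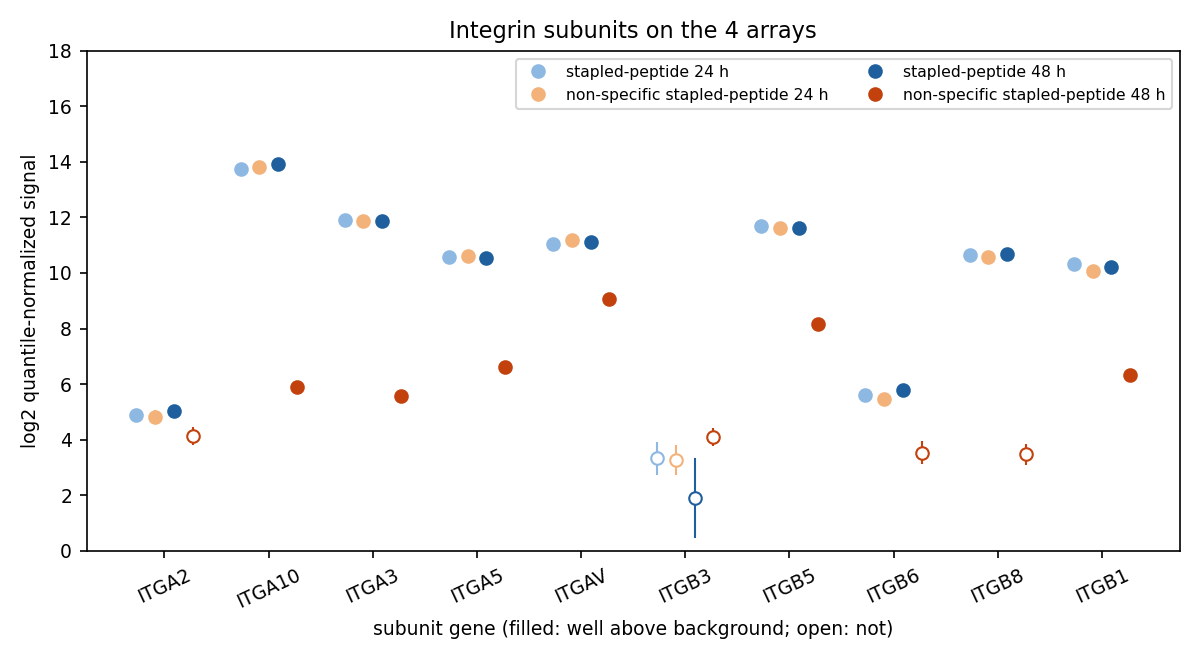
The y axis gives the log2 quantile-normalized signal of each subunit gene on each of the 4 arrays, with filled points for probes well above background, open points for probes that were not, and bars for the scanner software's own error of 1 array. For 9 genes the first 3 arrays lie within 0.30 of each other and the last array (non-specific, 48 h) lies below them, and ITGB3 is open throughout.

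Both collagen-binding α chains among the members were lower on the last array than on the like arrays, and for 1 of them the difference rests on a dim signal. ITGA10, whose product was first known from cartilage, had log2 signals of 13.76 in the stapled-peptide group and 13.82 in the non-specific group at 24 h, and of 13.92 and 5.90 at 48 h. The first 3 values lie together and the last is far below them. ITGA10 was 259-fold lower with non-specific than with stapled-peptide at 48 h, a log2 difference of -8.02, while at 24 h the difference was 0.06. The normexp background correction, which adds an offset and so shrinks the differences of dim signals, gave -6.89 at 48 h. Before normalization its signals were 14774, 15118 and 14320 on the like arrays and 65.3 on the last. ITGA2, the α chain of the main epithelial collagen receptor, had log2 signals of 4.87, 4.83 and 5.02 on the like arrays in the same order, and of 4.13 on the last, where it was not well above background. It was 1.86-fold lower at 48 h, a log2 difference of -0.90 that became -0.27 with normexp. A dim signal is raised to the lowest signal marked on that array, here 3.57, or kept where it is already higher. This is not a detection limit, as ITGA2 at 4.13 and ITGB3 at 4.10 were not marked there. A fold given below as at least some value holds under this rule alone, and normexp can give a smaller one. ITGA2 was kept, so the value counted as its bound is that of its own dim spot. Its signals before normalization, 27.6 to 32.7 on the like arrays, lay close to background throughout.

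ITGA3, the α chain of the laminin receptor of epithelia, was even across the like arrays and far lower on the last. Its log2 signals were 11.91 and 11.86 at 24 h, stapled-peptide first, and 11.87 and 5.56 at 48 h. The 3 like arrays spanned 0.05, and the last array was 79.2-fold below the stapled-peptide array of the same time, a log2 difference of -6.31 that became -5.01 with normexp. ITGA3, ITGA10 and ITGB8 are among the genes that the study itself picked from these arrays, so that their differences are not independent evidence.

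ITGA5, the α chain of the classical fibronectin receptor, had log2 signals of 10.56 and 10.61 at 24 h and 10.52 and 6.63 at 48 h. ITGB1, the β chain that it shares with the other β1 receptors, had 10.34 and 10.08 at 24 h and 10.20 and 6.33 at 48 h. Both were low on the last array alone. The log2 differences at 48 h were -3.89 for ITGA5 and -3.87 for ITGB1, or 14.9-fold and 14.6-fold lower, and with normexp they were -3.26 and -3.10. With 1 array a group, no spread between cultures is at hand to set these values against.

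ITGAV and ITGB1 were the 2 subunits printed many times, with 10 spots of the same probe on each array, and so give the error between spots. ITGAV spots ran from 2140 to 2253 and from 2247 to 2450 in signal before normalization at 24 h, and from 1913 to 2124 and from 506 to 641 at 48 h, with the stapled-peptide array first in each. ITGB1 spots ran from 1263 to 1411 and from 1034 to 1173 at 24 h, and from 973 to 1116 and from 83.4 to 98.0 at 48 h. No spot of the last array overlapped a spot of any other array for either gene. The ITGB1 spots of the stapled-peptide array at 24 h, 1263 to 1411, overlapped no other array either. A lack of overlap between spots thus does not by itself set an array apart. Its share over other repeated probes was not counted. Spots that the software marked as outliers were dropped, which left 8 to 10 spots a gene and array. The SD between spots was 0.02 to 0.09 on the log2 scale, which covers the error within an array and not the spread between cultures.

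**Figure D2:**
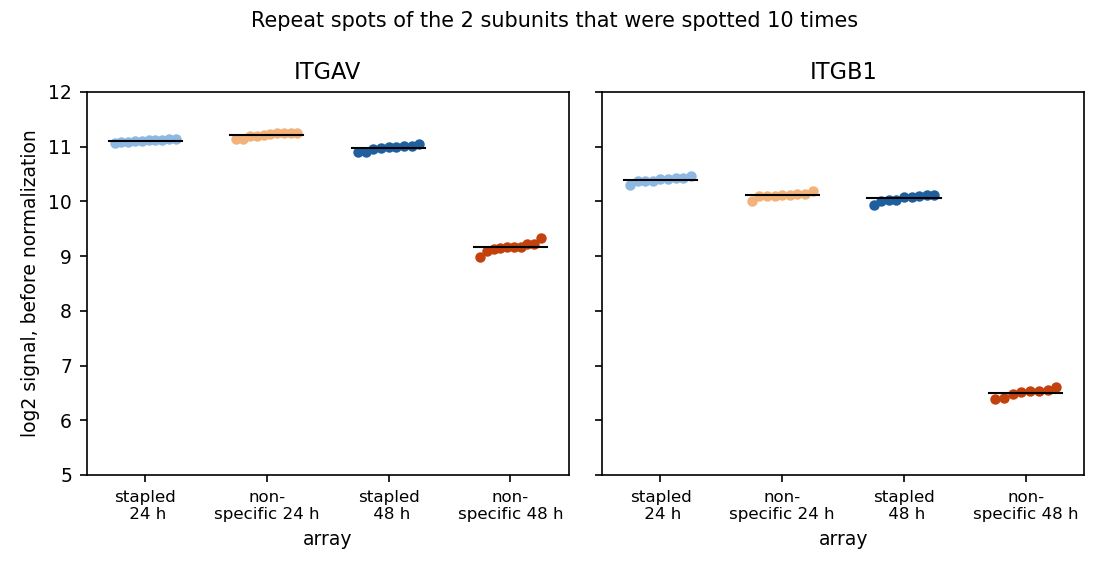
Each point is 1 spot of the ITGAV or ITGB1 probe on 1 array, on a log2 scale before normalization, and each line is the mean of the spots. The spots of the last array (non-specific, 48 h) lie below all others for both genes, by less for ITGAV than for ITGB1.

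The αV chain differed by less than its partners β1, β5 and β8, and the partners differed by very unequal amounts. ITGAV, which joins β1, β3, β5, β6 and β8, had log2 signals of 11.05 and 11.17 at 24 h and 11.13 and 9.05 at 48 h, and was 4.22-fold lower on the last array, a log2 difference of -2.08, just past the 4-fold limit used for counting. It did not pass that limit without normalization, at -1.82, or with normexp, at -1.91. ITGB5, the partner that makes the vitronectin receptor of epithelial cells, had 11.69 and 11.62 at 24 h and 11.64 and 8.15 at 48 h. It was 11.2-fold lower and still well above background.

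ITGB8, the partner that binds latent TGF-β, had log2 signals of 10.63 and 10.56 at 24 h and 10.69 and 3.47 at 48 h. It was at least 140-fold lower on the last array, where it was not well above background, a log2 difference of -7.13 that became -4.77 with normexp, short of 100-fold. ITGB6, the epithelial partner that releases TGF-β from its latent complex, was dim to begin with, at 5.62 and 5.47 at 24 h and 5.77 and 3.53 at 48 h. It was at least 4.61-fold lower, and with normexp its log2 difference was -0.58 and did not pass 4-fold. ITGB3 had log2 signals of 3.32 and 3.26 at 24 h and 1.90 and 4.10 at 48 h and was not well above background on any array, so it gives no fold in any comparison.

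Set side by side, the 9 subunits that could be compared were all lower in the non-specific than in the stapled-peptide group at 48 h, and 8 of them passed 4-fold. Over all 17112 genes compared, 8360 were lower by any amount, 8.7% were lower by at least 4-fold and 8.1% were higher by at least 4-fold. The median log2 difference was -3.87 over the 9 members, or -3.88 without the 3 bounds, and 0.03 over all genes. At a stricter limit 6 of the 9 passed 10-fold and 2 passed 100-fold, namely ITGA10 and ITGB8. The share of all genes past these limits was not counted. Of all genes compared, 3.58% lay at or below ITGB5, the least of those past 10-fold, and 0.54% at or below ITGB8. The members nearest the 4-fold limit were ITGAV and ITGB6 inside it and ITGA2 outside it. With the normexp correction 6 passed 4-fold, as ITGAV and ITGB6 did not, and without normalization 7 did, as ITGAV did not.

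The same array against the 24 h array of its own peptide gave the same picture, since the array at 48 h is shared between both comparisons. In the non-specific group, 9 of 9 subunits were lower at 48 h than at 24 h, against 8573 of all 17297 genes compared. Of the 9, 7 passed 4-fold, against 8.47% of all genes lower and 8.12% higher by that much. ITGB6 missed the limit here, as its bound was at least 3.74-fold, but it passed with scaling to the 75th percentile, at -2.27, and without normalization, at -2.14. ITGAV did not pass with normexp, at -1.97. ITGA10 was 241-fold lower, ITGB8 at least 128-fold, ITGA3 78.7-fold, ITGA5 15.8-fold, ITGB1 13.4-fold, ITGB5 11.1-fold and ITGAV 4.37-fold. ITGA2, again from its own dim signal, was 1.63-fold lower, a log2 difference of -0.70 that became -0.28 with normexp.

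Without the array that stood apart, none of the subunits moved by 4-fold. Between the peptides at 24 h the log2 differences of the 9 subunits ran from -0.26 for ITGB1 to 0.13 for ITGAV, and 0 passed 4-fold, against 0.271% of all genes lower and 0.142% higher. Between 48 h and 24 h with stapled-peptide they ran from -0.13 for ITGB1 to 0.16 for ITGA10, with 0 past 4-fold, against 0.291% of all genes lower and 0.229% higher. Over the 3 like arrays the spread of a subunit, from lowest to highest, was 0.05 to 0.30, with a median of 0.13. The software's error was about 0.14 for a bright single spot, a different measure from a spread over arrays. For the repeated probes of ITGB1 and ITGAV the error was 0.05, and their spreads over the like arrays, 0.26 and 0.13, were larger. These arrays differ in peptide and time, so their spread is not one between replicates. The count of 0 also held at 2-fold in both comparisons, and where the 3 arrays were normalized without the last one. The share of all genes past 2-fold was not counted. At 4-fold, 0 of 9 is near the share over all genes and does not set the members apart.

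**Figure D3:**
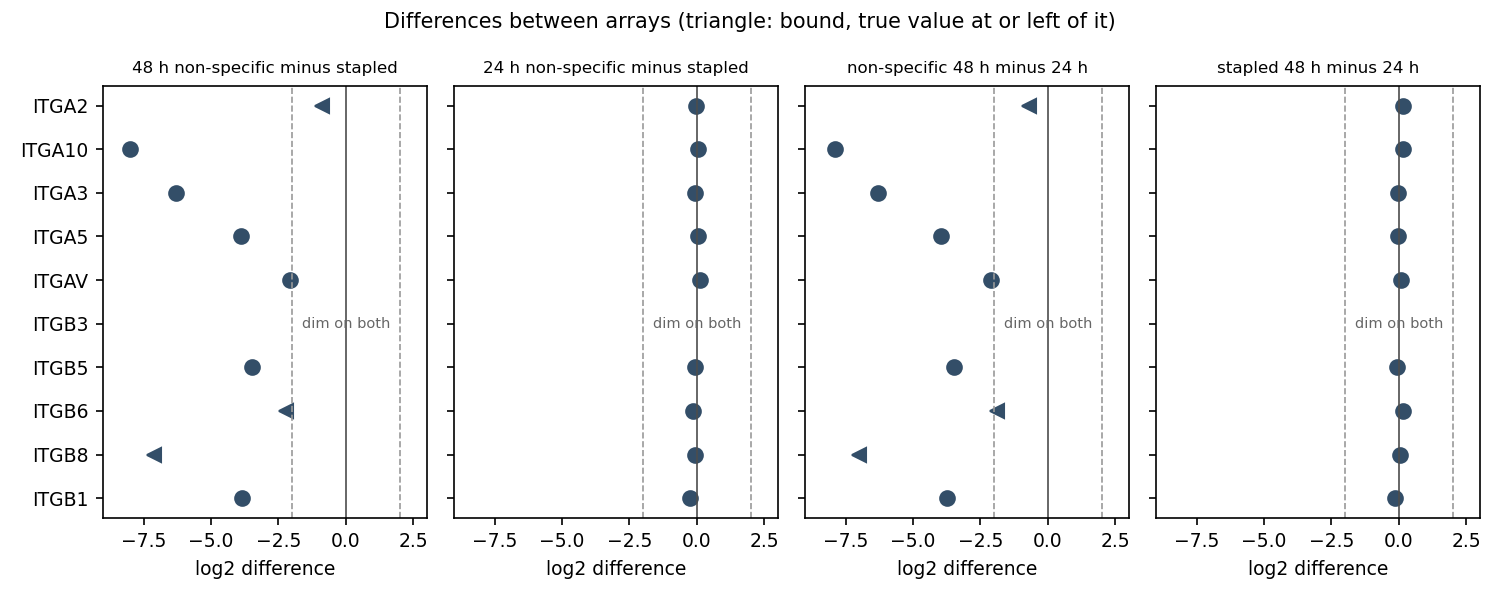
Each panel gives the log2 difference of the members in 1 comparison, with circles for probes measured on both arrays, triangles for bounds and dashed lines at 4-fold. The panels that use the last array (non-specific, 48 h) hold values down to -8.02, and in the other panels all 9 values lie between -0.26 and 0.16.

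Of the 9 αβ pairs that these subunits are known to form, 8 had both subunits well above background on each of the 3 like arrays. αVβ3 was the exception, for want of ITGB3. On the last array 5 pairs had both subunits, namely α3β1, α5β1, α10β1, αVβ1 and αVβ5. α2β1 was left with its β chain alone, and αVβ6 and αVβ8 with their α chain alone. ITGAV thus had 4 β partners among the 5 on the like arrays and 2 on the last, and ITGB1 had 5 and then 4 of its 5 α partners. The mark counts presence and not amount, as ITGA10 still counts as measured on the last array at a 259-fold lower signal.

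**Figure D4:**
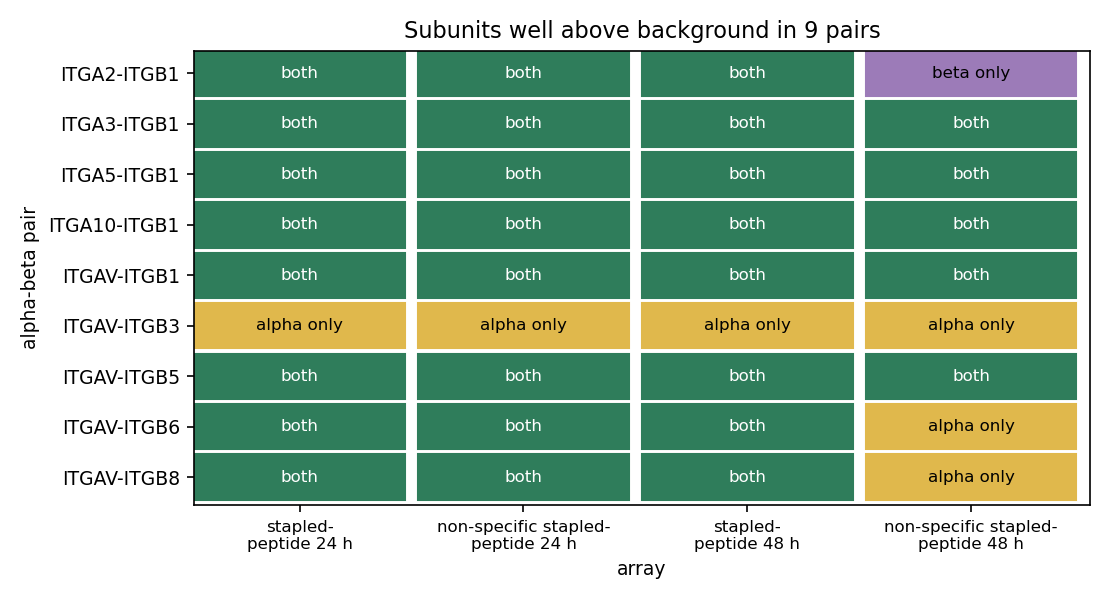
Rows are the 9 αβ pairs and columns the 4 arrays, and each cell says whether both subunits, the alpha chain alone or the beta chain alone was well above background. The first 3 columns are the same with 8 pairs complete, and the last has 5.

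The count of pairs turned on the mark. With the looser mark of a positive and significant signal, which was tried after the values were seen, all 9 pairs had both subunits on the last array and on both arrays at 24 h, and 8 had on the stapled-peptide array at 48 h. For α2β1, αVβ6 and αVβ8 on the last array, the subunit that lacked the stricter mark thus gave a dim signal, and it was not shown to be missing. In the 24 pairs of the whole integrin family, listed after the values were seen, 18 and 19 had both subunits at 24 h and 18 and 15 at 48 h, with stapled-peptide first. ITGB1 had 11 measured α partners on each of the 4 arrays, since ITGA8 came above background on the last array as ITGA2 went below it.

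The other 16 integrin subunits, some of which also bind matrix, did not share one direction. The members were chosen with earlier results of these data known, so the contrast describes these lists and not matrix binding. At 48 h 14 of them could be compared, 7 lower and 7 higher in the non-specific group, and their median log2 difference was 0.03. By 4-fold 3 were lower and 1 higher, against 8.7% and 8.1% of all genes. ITGB4, the β chain of the hemidesmosome, had the largest difference of the family, with log2 signals of 15.19 and 15.23 at 24 h and 15.29 and 7.10 at 48 h, a difference of -8.18. ITGB4 also stands in the matrix pathway that the study drew from these arrays, so its difference is not independent evidence. Its partner ITGA6 differed by -2.04. ITGB2, the β chain of leukocyte integrins, was at least 51.9-fold lower. ITGA7, a laminin-binding α chain known from muscle, was the 1 subunit higher by over 4-fold, with 7.36 and 7.41 at 24 h and 7.55 and 9.99 at 48 h. ITGA2B was at least 3.53-fold higher and ITGA8 at least 2.75-fold, while ITGA4 differed by 1.27 and ITGAE by 1.15. ITGA1 and ITGA11, further α partners of ITGB1, were well above background on all 4 arrays and differed by only -0.74 and -0.48. On the 3 like arrays no other subunit passed 4-fold between the peptides or between the times, where few of all genes did.

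The matrix ligands went the way of the receptors for the most part. Of 26 ligand genes 23 could be compared at 48 h, 20 of them lower and 14 by 4-fold, with 1 higher by 4-fold. Over all genes 8.7% were lower and 8.1% higher by 4-fold. The median log2 difference of the ligands was -2.34. FN1, the fibronectin that α5β1 and αV receptors bind, had log2 signals of 12.42 and 12.35 at 24 h and 12.61 and 3.12 at 48 h, and was at least 529-fold lower. LAMB3, a chain of a laminin that α3β1 binds, differed by -8.47. LAMA5 differed by -4.67 and LAMA3 by -2.44. FN1, LAMB3 and LAMA3 stand in the matrix pathway that the study drew from these arrays, so their differences are not independent evidence. The collagens were less alike, as COL4A1 of the basement membrane differed by -1.76 and COL1A1 of fibrillar collagen by 0.13. TGFB1, whose latent form αVβ6 and αVβ8 bind, differed by -2.26. VTN, the vitronectin gene, was near background at 3.94 to 4.49 on all 4 arrays. NID1, a basement membrane linker, went the other way and was at least 105-fold higher. At 24 h and between the times with stapled-peptide, 0 of 22 ligand genes passed 4-fold, where few of all genes did.

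Of the 39 adhesion proteins that link integrins to actin or sit beside them in the membrane, 35 were lower at 48 h in the non-specific group. By 4-fold 16 were lower and 1 higher, against 8.7% and 8.1% of all genes, and the median log2 difference was -1.63. TLN1, the talin that activates integrins from the inside, had log2 signals of 9.99 and 9.88 at 24 h and 9.90 and 7.88 at 48 h. The kindlins, its co-activators, differed from each other. FERMT1, the kindlin of epithelia, had 11.05 and 11.04 at 24 h and 11.05 and 6.89 at 48 h, while FERMT2, the widely expressed one, had 10.33 and 10.22 and then 10.30 and 10.40. The largest differences were those of TNS4, a tensin that binds the β1 tail, at -7.94, of CAV1, the caveolin of membrane pits, at -6.63, and of TNS3 at -4.68. LIMS2, an adaptor that joins ILK to other adhesion proteins, was at least 13.2-fold higher. PARVB was higher by 1.29 and KRIT1 by at least 0.62 on the log2 scale. At 24 h none of the list passed 4-fold, and neither did any between the times with stapled-peptide, where few of all genes did.

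**Figure D5:**
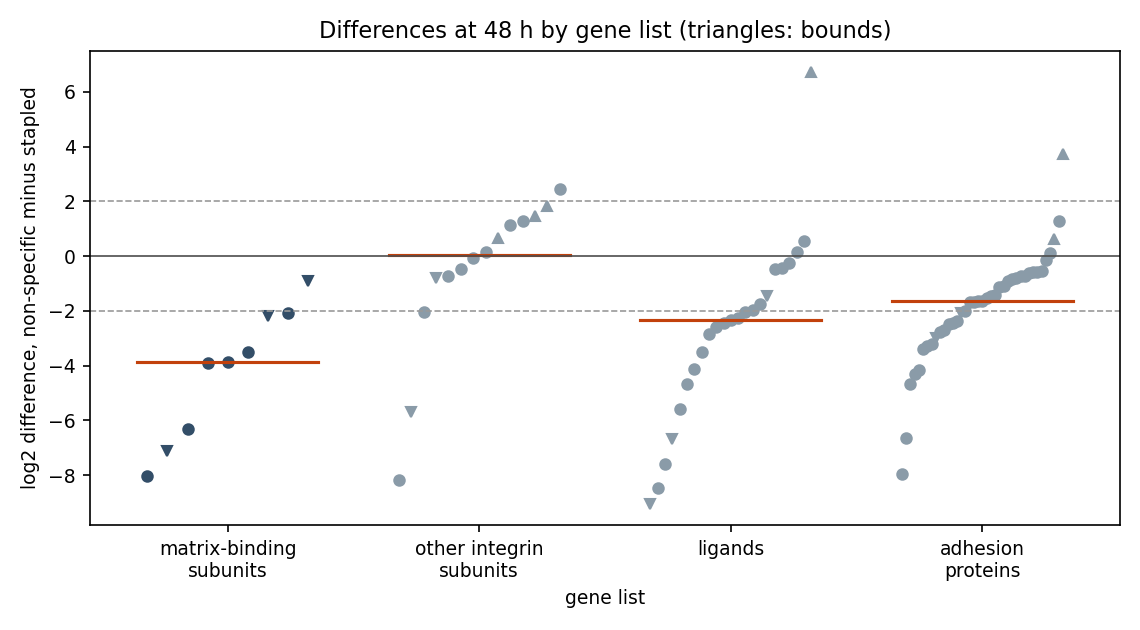
Points are genes, ordered by their log2 difference at 48 h, non-specific minus stapled-peptide, within each list, triangles are bounds, dashed lines mark 4-fold and the orange line is the median of the list. The medians are -3.87 for the members (labelled matrix-binding subunits), 0.03 for the other subunits, -2.34 for the ligands and -1.63 for the adhesion proteins. Some of the other subunits also bind matrix.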

How the data were processed

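Each of the 4 arrays was measured once. The authors deposited spot intensities that Feature Extraction had background-subtracted and had not normalized between arrays. The file headers name version 10.7.1.1, whereas the submitters' processing notes name 9.5. The combined table holds means of the same intensities over the spots of a probe, equal within 0.1% for 98.6% to 98.7% of probes.

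Controls and outlier-marked spots (uneven pixels, or far from other spots of the probe) were dropped, log2 signals were averaged per probe and quantile-normalized over the 4 arrays as in the study's methods. A probe counted as well above background if the software had marked most of its spots so. On each array 62.5% to 65.7% of spots were, and 0 were saturated. A gene's value was that of its brightest probe. A probe dim on 1 of 2 arrays was raised to the lowest marked signal of that array, or kept where it was higher, and gave a bound. Dim on both gave no fold. RefSeq accessions named 28168 of 50599 probes, and 9 probes without a spot left were dropped. The array design predates the RefSeq release used, so the positions given are those of the RefSeq table alone.

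The genes named are all members, the other integrin subunits, and of each list up to 3 with the largest difference in each direction at 48 h, with FN1, VTN, COL1A1, COL4A1, LAMA3, LAMA5, TGFB1, TLN1, FERMT1 and FERMT2. PAX2, L1CAM and LIN28B come from a marker list. A gene that this rule names is not reported here. The members, lists and 4-fold limit were chosen with earlier results of these data known. The fibroblast, endothelial, leukocyte, platelet and epithelial marker lists had summed signals of 29536 to 32014, 684 to 770, 1377 to 1460, 398 to 503 and 30282 to 31993 on the 3 like arrays, and of 181, 65.1, 160, 171 and 6234 on the last. ITGB2, ITGA2B and COL1A1 each stand in 2 lists.

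Python 3.11.15 with numpy 2.4.6, pandas 2.3.3 and matplotlib 3.10.9 was used, and limma 3.58.1 in R 4.3.3 for normexp on median pixel signals with an offset of 50. The steps were tested on simulated arrays with 50590 probes, where 150 of 150 probes changed by 8-fold or more passed 4-fold and 0 of 50 changed by 2-fold did. The changed probes were few and started bright, so the simulation does not cover an array that differs as widely as the last one.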

Additional observations from a re-analysis of the deposited data

How the results depend on the processing

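No paired analysis was possible because each group has 1 array. The settings tried were no normalization, scaling to the 75th percentile, normexp, keeping marked spots, the combined table, no bounds, probes marked on both arrays alone, the mean over probes, and limits of 2-fold, 10-fold and 100-fold. With 1 probe a member, the settings on several probes changed nothing. A value counted as moved when it shifted by over 0.32, the SD of log2 differences between the 24 h arrays, which is not a replicate spread. No difference past 4-fold changed sign. Of 300 recomputed member differences 279 did not move, and 14 of the other 21 moved with normexp. Those 14, of 36 recomputed with normexp, all lie in the comparisons that use the last array. The 279 include values that could hardly move, those of the mean over probes and those between the like arrays. Normexp took the median difference of the members at 48 h to -3.20 between the peptides, and to -3.20 between the times in the non-specific group. At 100-fold the count was 2 in each of these comparisons, and the share of all genes at that limit was not counted. With the mark of a positive and significant signal, added after the values were seen, 10 members and 9 pairs were measured on the last array (non-specific, 48 h). The causes of these changes were not tested. Signals near background limit ITGA2, ITGB3 and ITGB6, and the number of arrays limits every value.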
